A study of Gallus gallus with 6 samples.

Results

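The genes described here encode chromatin-modifying enzymes and chromatin remodellers in chicken embryo skeletal muscle cells. They were chosen by gene name, by a rule written with earlier results of these data known. The rule takes the Ensembl genes whose symbol starts with HDAC, SIRT, KDM, KMT, SETD, SMARC, CHD, DNMT, TET, KAT, PRMT or BRD (for CHD, TET, KAT and BRD only with a digit after it). It adds EZH2, EED, SUZ12, UHRF1, EHMT1, SUV39H2 and CREBBP. The rule found 80 genes among the 24881 Ensembl genes listed in all 6 tables. RNA sequencing was done on primary cultures at passage 1. Myoblasts, the dividing mononucleated precursors of muscle fibres, were kept in RPMI-1640 with 15% fetal bovine serum, and myotubes, the fused multinucleated cells, were obtained by culture in RPMI-1640 with 2% horse serum, both with penicillin and streptomycin. Each group has 3 libraries, and the series asks which genes differ between the groups. Whether replicate libraries are separate cultures or embryos is not stated in the labels. The p-values therefore reflect only how much these libraries vary, which may be technical. The medium, the time in culture and the cell state changed together and cannot be told apart.

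DNA in the nucleus is wound around histones, and enzymes add or remove acetyl and methyl groups on the histone tails, or methyl groups on the DNA itself. Other proteins read these marks, and remodellers use ATP to slide or evict the histone cores. In mammalian muscle precursors such enzymes are known to keep late muscle genes silent until the cells leave the cell cycle, and to open them afterwards. The roles given below are those known for the mammalian proteins of the same name.

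Ensembl genes received 15731818 to 20537315 counts per myoblast library and 21528951 to 23111863 per myotube library. Levels are given as CPM, which relates counts to library sizes scaled by the TMM method over the tested genes, in the order of replicates 1, 2 and 3. CPM does not divide by gene length, so levels of different chromatin genes are compared only as FPKM, the deposited value per kilobase. Sums of CPM over marker genes give long genes more weight and are compared only between groups. The test covered the 12808 genes whose FPKM averaged 1 or more across all 6 libraries, and a gene was called where the adjusted p of edgeR's quasi-likelihood F-test was under 0.05. Fold changes are myotube relative to myoblast, and log2 fold changes carry a standard error (SE). In bulk RNA, fewer cells of a type and less RNA per cell cannot be told apart.

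The marker genes of other cell states moved strongly between the same libraries. All 11 matched genes of dividing cells were lower in myotubes, and their summed level fell from between 2241.5 and 2330.3 CPM to between 343.7 and 405 CPM. Of 9 tested fibroblast genes 8 were higher and none lower, with sums of 5720 to 5819 CPM in myoblasts and 11545 to 13318 CPM in myotubes. Once the length trend described below was removed, 7 were higher and 1, COL3A1, was lower (log2 fold change -0.30, adjusted p = 0.0005). Of 9 tested blood and macrophage genes 8 were lower and none higher, with sums of 1113 to 1178 CPM in myoblasts and 284 to 302 CPM in myotubes, and HBZ was at 0 in all libraries. Of the 10 muscle genes 6 were higher and 4 lower, from MYOM2, 16.7-fold higher, to MYF5, 11.5-fold lower. They summed to between 1735 and 1846 CPM in myoblasts and between 2043 and 2135 CPM in myotubes. RNA of muscle genes, among them MYOD1, MYOG and MYL1, was thus present in both groups, though the sum hides opposite changes. Neural crest and glia genes lay between 12.6 and 20.9 CPM in sum, and endothelial genes between 1.25 and 1.73 CPM. The neural crest and glia sum hides opposite changes too. SOX10 went from a mean of 16.6 CPM in myoblasts to 0.132 CPM in myotubes, 120.6-fold lower. ERBB3 went from 3.49 to 13.6 CPM, 3.92-fold higher. The part of these cell states in the results below was not tested.

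Of the 80 genes, 79 passed the filter on low values. Of these, 44 were higher in myotubes, which is 55.7% beside a background of 36.7% of all tested genes, and 16 were lower, 20.3% beside 35.7%. In either direction 60 were called, 75.9% beside 72.5%, a share near the background, so the departure lay in the direction of the calls and not in how often calls were made. The median log2 fold change was 0.38 over the 79 genes and 0.01 over all tested genes. Changes of at least 2-fold upward were found for 13 genes, 16.5% beside 14.1% of all, and downward for 2 genes, PRMT3 and UHRF1, 2.53% beside 11.1%. The 13 were TET1, KDM4C, KAT6B, KDM5B, KMT2A, KDM1B, SETD1B, CHD7, EHMT1, CHD5, KAT6A, HDAC4 and HDAC10. These counts were 6 up and 4 down once the trend of expression with gene length, described below, was removed, and 19 up and 2 down on the TPM scale. The 3 libraries of one group all lay above the 3 of the other for 65 genes, 82.3% beside 76.1%.

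**Figure D1:**
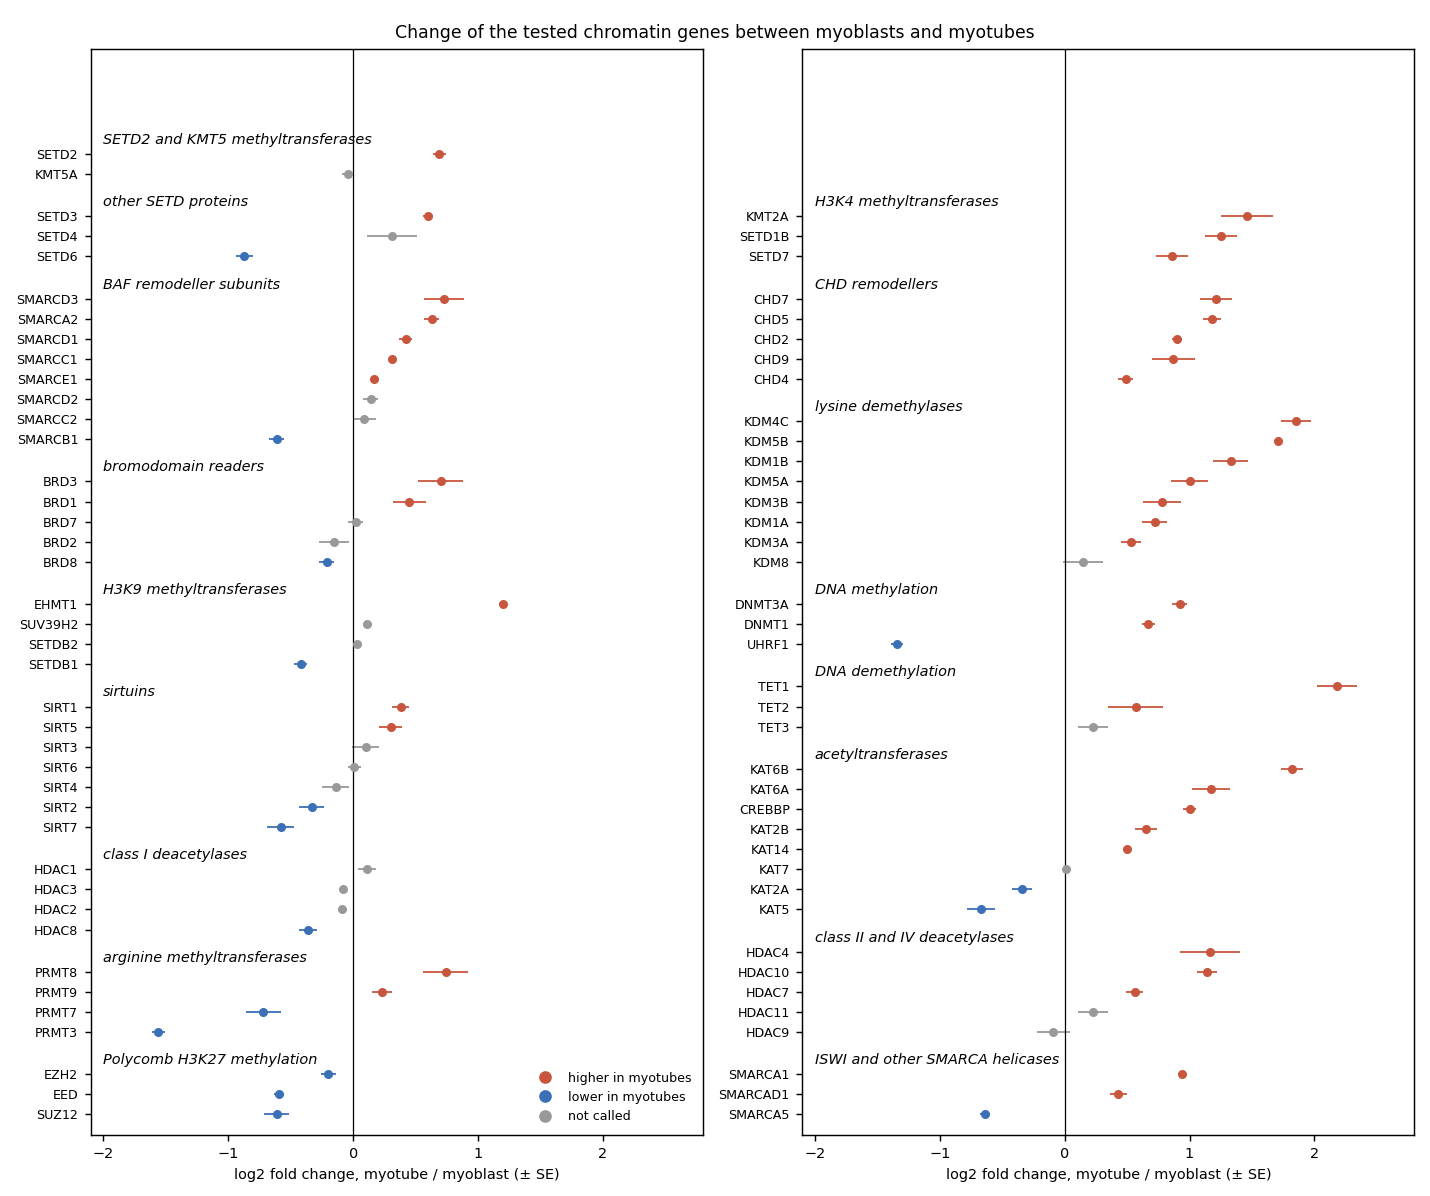
Log2 fold change (myotube relative to myoblast, horizontal axis) with its SE for 78 of the 79 tested genes, grouped by role. Lysine demethylases, H3K4 methyltransferases and CHD remodellers lie to the right of 0, the 3 Polycomb genes lie to its left, and TET1 (2.18) and PRMT3 (-1.56) are the extremes.

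The excess of higher calls went with gene length. The median length listed for the tested chromatin genes was 3276 bases, against 1828 for all tested genes, and 41 of the 79 fell in the longest of 5 equal length bins of all tested genes (3199 bases or more). In that bin 29 of the 41 were higher (70.7%), beside 55.6% of all genes of that length. In the bin from 2142 to 3198 bases 11 of 22 were higher, beside 38.1%, and of the 16 between 1000 and 2141 bases 4 were higher, beside 29.8% and 33.2% in the 2 bins concerned. Spearman's correlation between length and log2 fold change was 0.46 over the 79 genes and 0.16 over the 12808, as a description across genes that share the same libraries. Libraries of 1 group differed by length too. The difference between myoblast replicates 1 and 3 had a correlation with length of 0.39 over the chromatin genes and 0.25 over all, and the same correlation for myotube replicates 1 and 3 was -0.03 and -0.15. The length trend of each library was also removed, an alternative added after the data were seen. Of the 79 genes 36 were then higher and 22 lower, while 33.8% of all tested genes were higher and 38.7% lower. Higher calls thus still outnumbered lower calls among the chromatin genes, but not among all tested genes. The median was 0.15 beside -0.04. That fit used library totals and the trend in place of TMM factors, so the scaling of whole libraries changed with it. It also relied on the listed lengths, which the deposited FPKM values fit within 1% for only 45 of the 80 genes. For HDAC1, HDAC9, KAT7 and TET3 the FPKM values go with a length shorter than the listed one. The values of such genes with the trend removed therefore depend on which length is right. Of the 44 higher calls 35 remained and 9 were lost, 2 of them with a change of sign, and all 16 lower calls remained. Whether the length trend arose in the cells or in the libraries was not tested.

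**Figure D2:**
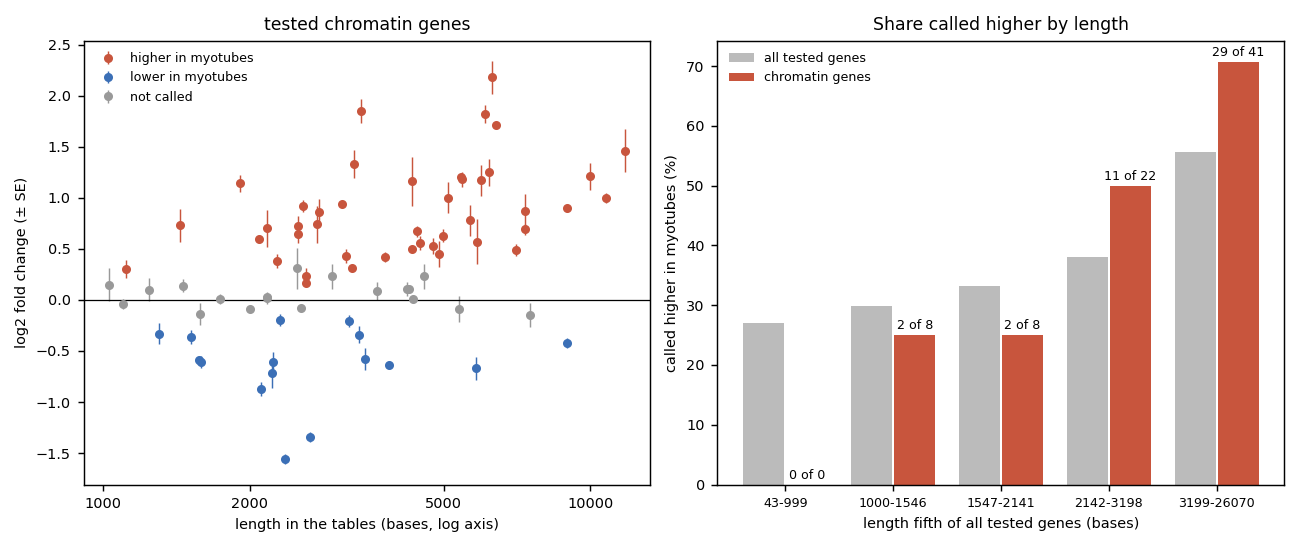
Left, log2 fold change of 78 of the 79 tested chromatin genes against its listed length in bases (log axis). Right, the percentage of genes called higher in myotubes in each of the 5 length bins, for chromatin genes and for all tested genes. In the longest bin it is 70.7% and 55.6%.

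Scaling moved the split as well. With library totals in place of TMM, 47 chromatin genes were higher and 14 lower, which is 77.0% of calls higher against 73.3%. On the TPM scale, where FPKM values are rescaled to a common sum per library, 55 were higher and 11 lower, 83.3% of calls. The TPM values were tested with limma on a log2 scale with a pseudocount, so the test differed there as well as the scale. On that scale the median of all tested genes itself moved to 0.19 and 45.8% of them were higher and 27.3% lower. With the length trend removed 62.1% of the calls on chromatin genes were higher. In the accounts below, a call on a gene with library values that ends under one of these is named with its value. The counts of each role and list stand beside a background of 36.7% higher and 35.7% lower of all tested genes. With the length trend removed that background is 33.8% and 38.7%.

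Histone deacetylases remove acetyl groups and are linked to gene silencing. Among the class I enzymes, of which HDAC1, HDAC2 and HDAC3 are catalytic subunits of corepressor complexes, 1 of 4 was lower and none higher. HDAC8 was at 87.1, 96.6 and 99.0 CPM in myoblasts and at 70.9, 77.3 and 71.9 CPM in myotubes. All its myotube libraries lay below the myoblast libraries, 1.29-fold lower (log2 fold change -0.36 ± 0.07 SE, adjusted p = 0.00089). HDAC8 lies wholly within the listed span of PHKA1 on the same strand, a gene that was 1.37-fold higher. HDAC1 was at 61.5, 65.4 and 66.8 CPM in myoblasts and 74.5, 65.3 and 69.4 CPM in myotubes. These groups overlapped and the difference was not called (0.11 ± 0.07, adjusted p = 0.20). It was called higher with library totals (0.17, adjusted p = 0.046) and on the TPM scale (0.29, adjusted p = 0.0046), and was -0.19 and not called with the length trend removed. HDAC2, at a mean FPKM of 165.3 in myoblasts and 162.6 in myotubes, ranked highest per length of the 80 genes in both groups and was not called either (-0.09 ± 0.02, adjusted p = 0.14).

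The class II enzymes, of which HDAC4, HDAC7 and HDAC9 bind the muscle transcription factor MEF2 and repress its targets in mammals, and the class IV enzyme HDAC11 gave 3 higher and no lower calls of 5. HDAC4 was at 20.2, 14.9 and 11.3 CPM in myoblasts and at 35.4, 33.8 and 34.0 CPM in myotubes. The myoblast libraries were widely spread, with replicate 1 the highest, yet each lay below every myotube library, and HDAC4 was 2.23-fold higher (1.16 ± 0.24, adjusted p = 0.00012). HDAC9 was at 12.6, 10.9 and 9.82 CPM in myoblasts and 9.60, 10.2 and 11.4 CPM in myotubes. Its groups overlapped and it was not called (-0.09 ± 0.13, adjusted p = 0.53), though it was lower with the length trend removed (-0.52, adjusted p = 0.0018). HDAC10, which in mammals acts mainly on polyamines, was 2.20-fold higher (12.0 ± 0.726 CPM in myoblasts and 26.5 ± 2.05 in myotubes, SD), and HDAC7 was 1.47-fold higher (113.2 ± 3.84 and 166.6 ± 13.5 CPM, SD).

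Sirtuins are deacylases that consume NAD. They were split, with 2 of 7 higher, 2 lower and 3 not called. On the TPM scale 4 of the 7 were higher and none lower, beside 45.8% and 27.3% of all tested genes. SIRT1, a nuclear enzyme that restrains muscle gene expression in mouse myoblasts, was at 36.9, 37.9 and 32.3 CPM in myoblasts and at 46.2, 47.3 and 45.4 CPM in myotubes. Every myotube library was above every myoblast library, and the rise was 1.30-fold (0.38 ± 0.07, adjusted p = 0.0015). SIRT7, a nucleolar enzyme, was at 8.37, 10.1 and 10.3 CPM in myoblasts and at 6.16, 6.85 and 6.36 CPM in myotubes. It was 1.49-fold lower without overlap (-0.58 ± 0.11, adjusted p = 0.0026), but was not called on the TPM scale (-0.29, adjusted p = 0.060), and it overlaps PCYT2, a gene with 1977 counts against 938 of its own. The other 2 calls were SIRT5, a mitochondrial desuccinylase, 1.23-fold higher, and SIRT2, a mainly cytoplasmic enzyme, 1.26-fold lower and not called on the TPM scale (-0.14, adjusted p = 0.10).

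Histone acetyltransferases place the acetyl groups. Of 8, 5 were higher, 2 lower and 1, KAT7, not called (0.01 ± 0.03; lower with the length trend removed, -0.31, adjusted p = 0.0025). KAT6B, the catalytic subunit of a complex that acetylates histone H3, was at 10.9, 9.99 and 9.22 CPM in myoblasts and at 36.4, 32.6 and 37.5 CPM in myotubes. The 3 myotube libraries stood far above the others, a 3.54-fold rise (1.82 ± 0.09, adjusted p = 1.2e-07; 1.32 with the length trend removed). Its paralog KAT6A was 2.25-fold higher (32.8 ± 5.48 and 73.7 ± 4.90 CPM, SD).

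CREBBP, a coactivator of MyoD in mammals, was at 80.0, 75.5 and 75.2 CPM in myoblasts and at 162, 152 and 145 CPM in myotubes. The groups were well apart and the fold was 2.00 after rounding, just short of the 2-fold count (1.00 ± 0.05, adjusted p = 2.2e-07). With the length trend removed it was 0.13 and not called, and CREBBP is among the longest genes here with 10787 bases listed. KAT2B, the acetyltransferase PCAF, was at 31.4, 32.2 and 27.8 CPM in myoblasts and at 50.5, 43.8 and 48.8 CPM in myotubes. It was 1.57-fold higher without overlap (0.65 ± 0.09, adjusted p = 6.7e-05).

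KAT5, the catalytic subunit of the TIP60 complex, went the other way, at 116, 125 and 124 CPM in myoblasts and 86.1, 75.9 and 67.5 CPM in myotubes. Every myotube library was below the myoblast range, a 1.59-fold fall (-0.67 ± 0.11, adjusted p = 4.9e-05). KAT5 lies on an unplaced scaffold and overlaps RELA and an unnamed gene on the opposite strand, 1.28-fold and 1.74-fold lower; the strand setting of the counting is unknown. KAT2A, the paralog of KAT2B, was 1.27-fold lower (62.3 ± 2.66 and 49.2 ± 4.38 CPM, SD; adjusted p = 0.0038) and was not called on the TPM scale (-0.15, adjusted p = 0.13).

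Bromodomain proteins bind acetylated histones. Of 6, 3 were higher, 1 lower and 2 not called, with 1 higher and 3 lower once the length trend was removed. BRD3, a reader with a pair of bromodomains, was at 17.1, 15.2 and 11.8 CPM in myoblasts and at 26.4, 22.2 and 22.7 CPM in myotubes. It was 1.62-fold higher (0.70 ± 0.18, adjusted p = 0.0011), and at 2169 listed bases the removal of the trend left 0.67.

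BRD8, a subunit of the TIP60 complex, was at 55.5, 49.3 and 53.2 CPM in myoblasts and at 45.6, 43.8 and 47.4 CPM in myotubes. It was 1.16-fold lower without overlap (-0.21 ± 0.06, adjusted p = 0.027). That call ended without myoblast replicate 1, without myoblast replicate 3 and without myotube replicate 2 (adjusted p from 0.063 to 0.09). It also ended with library totals in place of TMM (-0.15, adjusted p = 0.097) and on the TPM scale (-0.02, adjusted p = 0.82). BRD2 was not called (-0.15 ± 0.12, adjusted p = 0.16), but was lower without myotube replicate 1 (-0.27, adjusted p = 0.0029), the library in which it was highest among the myotubes, and with the length trend removed (-0.78, adjusted p = 0.00014). BRD2 shares 1177 bases with an unnamed gene on the same strand, with 5948 counts against 38490 of BRD2. That gene was 1.46-fold higher.

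Polycomb repressive complex 2 methylates lysine 27 of histone H3, a repressive mark that covers muscle genes in mammalian myoblasts. The naming rule took in 3 of its subunits, and all 3 were lower in myotubes. Of 20 tested Polycomb partners outside the rule, described further below, 11 were higher and 3 lower. SUZ12, a scaffold of the complex, was at 43.7, 41.7 and 37.9 CPM in myoblasts and at 24.3, 27.3 and 29.1 CPM in myotubes. The groups were clearly apart, 1.53-fold lower (-0.61 ± 0.10, adjusted p = 0.00015). EED, which binds the mark, was at 41.0, 41.2 and 42.3 CPM in myoblasts and at 26.3, 28.8 and 27.6 CPM in myotubes. It was 1.51-fold lower with little spread in either group (-0.59 ± 0.04, adjusted p = 3e-05).

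EZH2, the methyltransferase itself, was at 53.7, 58.0 and 59.1 CPM in myoblasts and at 47.0, 51.0 and 51.1 CPM in myotubes. The groups did not overlap, but the fall was only 1.15-fold (-0.20 ± 0.06, adjusted p = 0.033). The call ended without myoblast replicate 2 or 3 or without myotube replicate 1 or 2 (adjusted p from 0.051 to 0.092), with library totals in place of TMM (-0.14, adjusted p = 0.12) and on the TPM scale (-0.01, adjusted p = 0.89). Over the same libraries the 11 dividing-cell genes had a median log2 fold change of -2.96, and their part in the fall of the 3 subunits was not tested.

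Methylation of lysine 9 of histone H3 marks silent chromatin. Of the 4 enzymes, 1 was higher, 1 lower and 2 not called. EHMT1, which places mono- and dimethylation, was at 76.5, 75.6 and 75.2 CPM in myoblasts and at 180.3, 168 and 174 CPM in myotubes. Both groups were tight, and the rise was 2.29-fold (1.20 ± 0.03, adjusted p = 2.4e-08; 0.76 with the length trend removed). SETDB1, which places trimethylation at repeats, was at 152, 157 and 162 CPM in myoblasts and at 124, 118 and 112 CPM in myotubes. It was 1.34-fold lower (-0.42 ± 0.05, adjusted p = 8.1e-05; -1.16 with the length trend removed), and PRPF3, whose span on the opposite strand holds it whole, was 1.61-fold lower. SUV39H2, a trimethylating enzyme, was at 30.1, 30.5 and 29.0 CPM in myoblasts and at 32.0, 33.4 and 31.4 CPM in myotubes. Its groups were just apart but it was not called (0.11 ± 0.03, adjusted p = 0.18), and it was higher on the TPM scale (0.27, adjusted p = 0.020) and lower with the length trend removed (-0.20, adjusted p = 0.031).

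All 3 enzymes that methylate lysine 4 of histone H3, a mark of active promoters and enhancers, were higher in myotubes, also with the length trend removed. KMT2A was at 27.4, 22.3 and 18.3 CPM in myoblasts and at 54.6, 60.2 and 72.3 CPM in myotubes. Both groups were spread, but the lowest myotube library was well above the highest myoblast library, 2.76-fold on average (1.46 ± 0.21, adjusted p = 8.7e-06; 0.53 with the length trend removed). SETD7, which places a single methyl group on H3 and on other proteins, was at 78.7, 71.2 and 62.3 CPM in myoblasts and at 112, 137 and 135 CPM in myotubes. It was 1.81-fold higher (0.86 ± 0.13, adjusted p = 2.4e-05), and per length it ranked 16 of 80 in myoblasts and 4 in myotubes. SETD1B was 2.38-fold higher (11.6 ± 1.36 and 27.6 ± 2.74 CPM, SD).

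SETD2, which trimethylates lysine 36 of H3 along transcribed genes, was at 153, 155 and 141 CPM in myoblasts and at 247, 239.6 and 239.6 CPM in myotubes. It was 1.61-fold higher without overlap (0.69 ± 0.05, adjusted p = 1.8e-06), but with the length trend removed it was 0.08 and not called. KMT5A, which methylates lysine 20 of histone H4 and is regulated over the cell cycle in mammals, was not called (29.0 ± 1.78 and 28.1 ± 0.467 CPM, SD; adjusted p = 0.64).

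The remaining SETD genes include enzymes with known targets other than histones in mammals, which need not be their only targets. SETD3, which methylates a histidine of actin, was at 76.3, 72.0 and 78.6 CPM in myoblasts and at 113, 115 and 117 CPM in myotubes. Every myotube library was above every myoblast library, a 1.52-fold rise (0.60 ± 0.04, adjusted p = 6e-06). SETD6, which methylates the NF-kappaB subunit RELA, was at 47.0, 49.0 and 49.9 CPM in myoblasts and at 28.3, 26.7 and 24.5 CPM in myotubes. It was 1.83-fold lower without overlap (-0.87 ± 0.07, adjusted p = 3.2e-06), and SETD4 was not called.

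Arginine methyltransferases gave 2 higher and 2 lower calls of 4. PRMT3, whose known target is a protein of the small ribosomal subunit, was at 129, 128 and 123 CPM in myoblasts and at 41.6, 40.9 and 45.8 CPM in myotubes. It was 2.96-fold lower, the largest fall among the 79 genes tested here (-1.56 ± 0.05, adjusted p = 1.8e-08), and lies on chromosome 5 from 2086559 to 2141355 in the tables' coordinates (build not given in the sources used here). PRMT8, a membrane-bound enzyme known from mammalian brain, was at 7.86, 7.50 and 7.96 CPM in myoblasts and at 10.5, 12.4 and 16.1 CPM in myotubes. It was 1.67-fold higher from a low level (0.74 ± 0.18, adjusted p = 0.0019). PRMT7 was 1.64-fold lower. PRMT9 was 1.17-fold higher (adjusted p = 0.026), a call that ended without any of myoblast replicates 2 and 3 and myotube replicates 2 and 3 (adjusted p from 0.058 to 0.12) and with the length trend removed.

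Lysine demethylases remove methyl groups from histones. Of 8, 7 were higher and none lower, and the same counts were found with the length trend removed. KDM4C, which acts on lysines 9 and 36 of H3, was at 10.6, 8.93 and 8.06 CPM in myoblasts and at 33.3, 31.0 and 34.9 CPM in myotubes. The myotube libraries were all far above the myoblast libraries, a 3.61-fold rise (1.85 ± 0.12, adjusted p = 2.4e-07). KDM4C lies on the Z sex chromosome, from 28100525 to 28396866. The tested genes of that chromosome had a median log2 fold change of -0.05, with 187 of 575 higher and 208 lower.

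KDM1A, or LSD1, which removes methyl groups from lysine 4 of H3 and is required for mouse myoblast differentiation, was at 59.8, 55.8 and 56.6 CPM in myoblasts and at 82.9, 97.5 and 103 CPM in myotubes. It was 1.65-fold higher without overlap (0.72 ± 0.10, adjusted p = 3.1e-05). Its paralog KDM1B rose 2.51-fold (10.1 ± 1.46 and 25.3 ± 2.12 CPM, SD). In myoblasts the mean FPKM was 2.95 for KDM1B and 21.9 for KDM1A. KDM5B and KDM5A, which also act on lysine 4, were 3.27-fold higher (87.1 ± 1.70 and 284.9 ± 9.26 CPM, SD; adjusted p = 3.2e-09) and 2.00-fold higher after rounding (37.3 ± 4.82 and 74.4 ± 9.16 CPM, SD). KDM5B, on chromosome 26 from 534491 to 563446, lies wholly within the listed span of CSRP1, a LIM domain protein gene on the same strand with 98705 counts against 23951. CSRP1 was 1.92-fold lower, so the 2 genes moved in opposite directions. KDM3A and KDM3B, which act on lysine 9, were 1.45-fold and 1.72-fold higher, and KDM8 was not called.

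DNA methylation in vertebrates is copied to new strands by DNMT1, which UHRF1 brings to freshly replicated DNA, and is set anew by DNMT3A and DNMT3B. UHRF1 was at 144, 139 and 129 CPM in myoblasts and at 54.6, 54.2 and 53.9 CPM in myotubes. It was 2.53-fold lower (-1.34 ± 0.05, adjusted p = 3.1e-08), and its place per length among the 80 genes went from 10 to 37. DNMT1 was at 106, 106 and 103 CPM in myoblasts and at 174, 170.1 and 157 CPM in myotubes. The 2 genes, known to act together, moved in opposite directions, with DNMT1 1.59-fold higher (0.67 ± 0.05, adjusted p = 2.3e-06; 0.35 with the length trend removed). DNMT1 is listed on an unplaced scaffold and shares 781 bases with EIF3G on the same strand, a gene with 23485 counts that was not called (0.11).

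DNMT3A was at 59.1, 63.1 and 57.0 CPM in myoblasts and at 118, 113 and 108 CPM in myotubes. It was 1.89-fold higher without overlap (0.92 ± 0.06, adjusted p = 7.2e-07). DNMT3B was at 1.22, 0.625 and 1.81 CPM in myoblasts and at 0.861, 0.693 and 0.545 CPM in myotubes, with 65 and 48 counts in the 2 groups. It was the 1 gene under the filter on low values, its groups overlapped, and its mean FPKM was the lowest of the 80 genes in both groups.

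TET enzymes oxidise methylated cytosine, the first step of its removal. TET1 was at 8.24, 6.75 and 6.15 CPM in myoblasts and at 31.2, 28.1 and 35.8 CPM in myotubes. Its lowest myotube library was over 3 times its highest myoblast library, and the 4.52-fold rise was the largest among the 79 genes (2.18 ± 0.16, adjusted p = 2.9e-07; 1.66 with the length trend removed). TET2 was at 23.4, 17.8 and 14.2 CPM in myoblasts and at 25.8, 26.7 and 29.5 CPM in myotubes. Myoblast replicate 1 came close to the myotube libraries, and the gene was 1.49-fold higher (0.57 ± 0.22, adjusted p = 0.0072), but 0.10 and not called with the length trend removed. TET3 was at 40.3, 39.2 and 43.0 CPM in myoblasts and at 55.4, 44.3 and 43.7 CPM in myotubes. The groups were barely apart and it was not called (0.23 ± 0.12, adjusted p = 0.063), though it was called without myotube replicate 3 (0.29, adjusted p = 0.032), with library totals (0.29, adjusted p = 0.020) and on the TPM scale (0.39, adjusted p = 0.006), and was -0.12 and not called with the length trend removed.

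**Figure D3:**
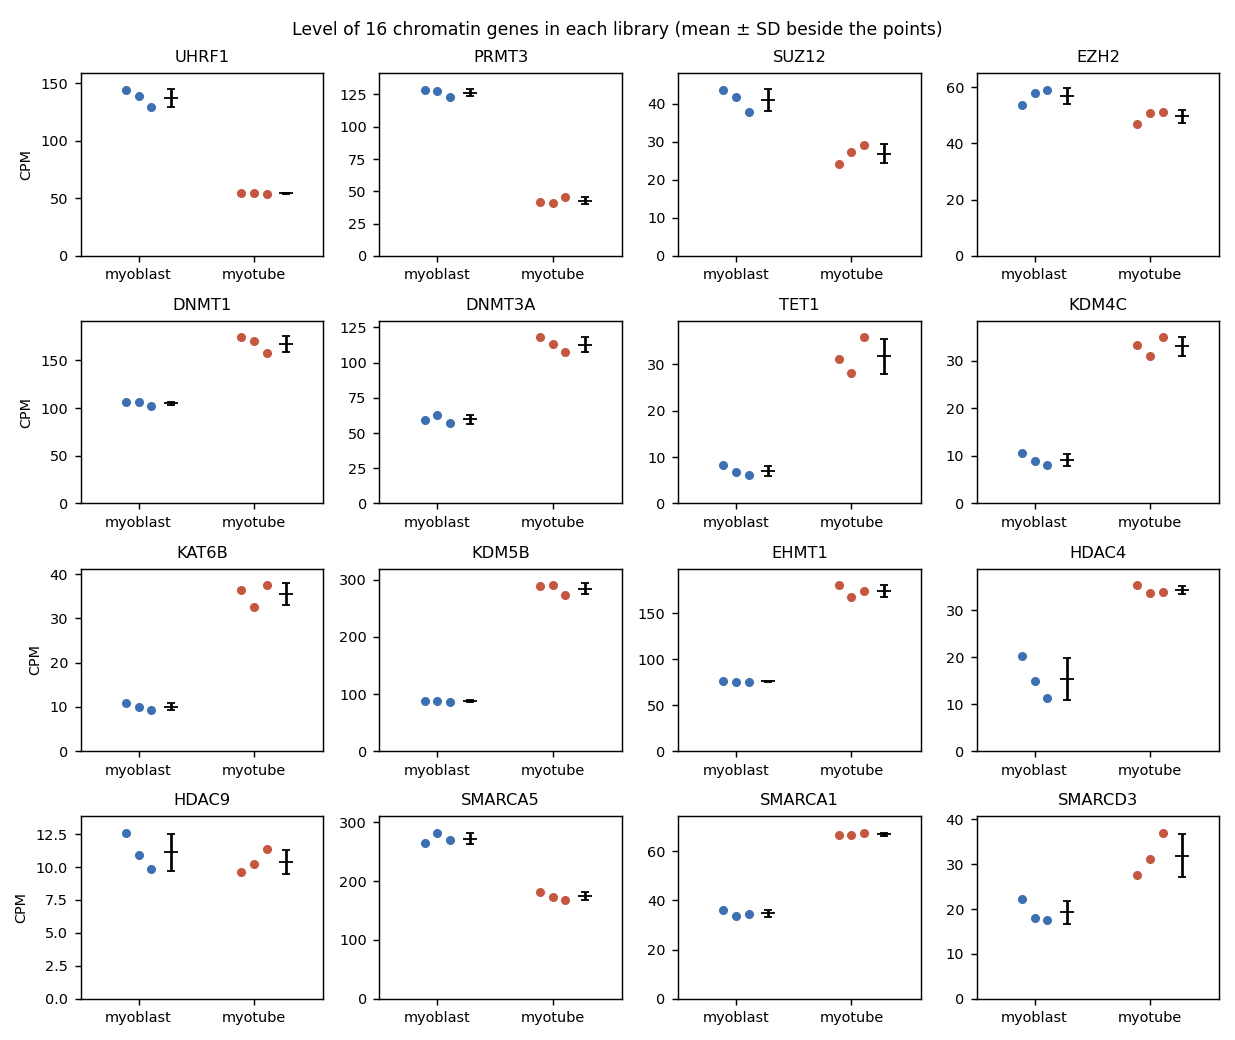
CPM (vertical axis of each panel, from 0) in the 3 myoblast and 3 myotube libraries of 16 genes, each point 1 library, with the group mean and SD beside the points. UHRF1 and PRMT3 fall, TET1, KDM4C and KAT6B rise from below 11 to above 28 CPM, and HDAC9 overlaps between groups.

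The BAF complex, the animal SWI/SNF remodeller, is built around an ATPase with variable accessory subunits. Of 8 of its genes 5 were higher, 1 lower and 2 not called. SMARCA2, 1 of the alternative ATPases, was at 149, 134 and 134 CPM in myoblasts and at 222, 204 and 220.1 CPM in myotubes. It was 1.55-fold higher without overlap (0.63 ± 0.06, adjusted p = 7.4e-06). SMARCB1, a core subunit, was at 125, 132 and 139 CPM in myoblasts and at 90.2, 88.1 and 82.0 CPM in myotubes. It was 1.52-fold lower (-0.61 ± 0.06, adjusted p = 9.5e-06), while other subunits present in most BAF complexes, SMARCC1 and SMARCE1, were 1.24-fold and 1.12-fold higher. The SMARCE1 call ended without myoblast replicate 1 or 2 (adjusted p of 0.055 and 0.078) and with the length trend removed (0.10, adjusted p = 0.13).

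SMARCD1, SMARCD2 and SMARCD3 encode the alternative BAF60 subunits, and SMARCD3 is the form that joins MyoD in mouse muscle cells. SMARCD3 was at 22.2, 18.1 and 17.5 CPM in myoblasts and at 27.6, 31.1 and 37.0 CPM in myotubes. It was 1.66-fold higher without overlap (0.73 ± 0.16, adjusted p = 0.00049). SMARCD1 was at 53.9, 56.6 and 57.4 CPM in myoblasts and at 79.0, 74.7 and 71.1 CPM in myotubes. It was 1.34-fold higher (0.42 ± 0.05, adjusted p = 0.00028), but 0.17 and not called with the length trend removed, and ASIC1, whose span on the same strand holds it whole, with 586 counts against 8010, was 2.36-fold higher. SMARCD2 was at 52.6, 52.6 and 52.9 CPM in myoblasts and at 61.5, 58.2 and 53.9 CPM in myotubes. It was not called (0.14 ± 0.06, adjusted p = 0.12; called without myotube replicate 3, 0.18, adjusted p = 0.046, with library totals or the length trend removed, 0.19 each, and on the TPM scale, 0.31).

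The ISWI ATPases space nucleosomes, and the 2 genes for them moved in opposite directions. SMARCA5 was at 264, 282 and 269.9 CPM in myoblasts and at 182, 173 and 169 CPM in myotubes. It was 1.56-fold lower without overlap (-0.64 ± 0.04, adjusted p = 2.9e-06). SMARCA1 was at 36.3, 33.5 and 34.5 CPM in myoblasts and at 66.5, 66.5 and 67.5 CPM in myotubes. It was 1.92-fold higher with almost no spread among the myotube libraries (0.94 ± 0.03, adjusted p = 7.9e-07). SMARCAD1, a related helicase, was 1.35-fold higher.

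All 5 CHD remodellers were higher in myotubes, 4 of them also with the length trend removed. CHD4, the ATPase of the NuRD corepressor, was at 284, 286 and 269 CPM in myoblasts and at 414, 367 and 398 CPM in myotubes. It was 1.41-fold higher without overlap (0.49 ± 0.06, adjusted p = 4.7e-05), and it was the exception, at -0.10 and not called (adjusted p = 0.20) with the length trend removed. CHD4 shares 292 bases with an unnamed gene on the same strand, with 7576 counts against 41176 of CHD4. That gene was not called (-0.62). CHD7, mutated in CHARGE syndrome, was at 38.2, 32.9 and 28.4 CPM in myoblasts and at 76.8, 72.7 and 80.2 CPM in myotubes. It was 2.31-fold higher (1.21 ± 0.13, adjusted p = 2.9e-06; 0.40 with the length trend removed). CHD5 was 2.26-fold, CHD2 1.87-fold and CHD9 1.83-fold higher. With the length trend removed their log2 fold changes were 0.74, 0.15 and 0.26. CHD5 shares 3548 bases with an unnamed gene on the same strand, with 340 counts against 2263 of CHD5. That gene was 3.27-fold higher.

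Paralogs can be set side by side within a library as shares of their summed FPKM. This was done for 30 shares in 13 families, and for 22 the 2 groups did not overlap. Each of these had an exact two-sided permutation p of 0.1, the smallest that 3 against 3 libraries allow, so no share could pass 0.05. Shares within a family are not independent. In a family of 2 genes both shares hold the same measurement, and each was counted. No background was computed for shares, while the levels of 76.1% of all tested genes did not overlap. SMARCA1 held 14.4, 12.7 and 13.5% of the ISWI pair in myoblasts and 30.9, 32.0 and 32.9% in myotubes, with SMARCA5 still the larger in both. KAT2B held 40.3, 42.9 and 38.8% of the KAT2 pair in myoblasts and 57.0, 55.5 and 60.5% in myotubes. The order of that pair was therefore reversed, from more KAT2A to more KAT2B.

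TET1 held 8.0, 7.14 and 6.29% of the TET total in myoblasts and 20.0, 21.1 and 25.2% in myotubes. TET3 remained the largest of the family, at 76.0% ± 4.53 (SD) in myoblasts and 60.7% ± 4.45 in myotubes, while TET2 overlapped between groups. KDM5B went from 66.9% ± 2.49 to 76.8% ± 2.70 of its pair with KDM5A, and KAT6B from 23.2% ± 1.40 to 32.0% ± 1.22 of its pair with KAT6A.

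HDAC4 went from 11.9% ± 3.16 to 17.8% ± 0.853 of the total of HDAC4, HDAC7 and HDAC9, and HDAC9 from 12.8% ± 1.30 to 8.09% ± 1.16. SMARCD3 held 23.4, 19.7 and 19.1% of the BAF60 total in myoblasts and 23.2, 26.5 and 31.4% in myotubes. Myoblast replicate 1 lay just above myotube replicate 1, so these groups overlapped (exact permutation p = 0.2). SMARCD2 was the largest BAF60 gene per length in both groups, at 56.0% ± 1.15 and 48.4% ± 2.98. FPKM depends on the gene lengths the authors used, which fit the length listed in the tables for 45 of the 80 genes within 1%.

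**Figure D4:**
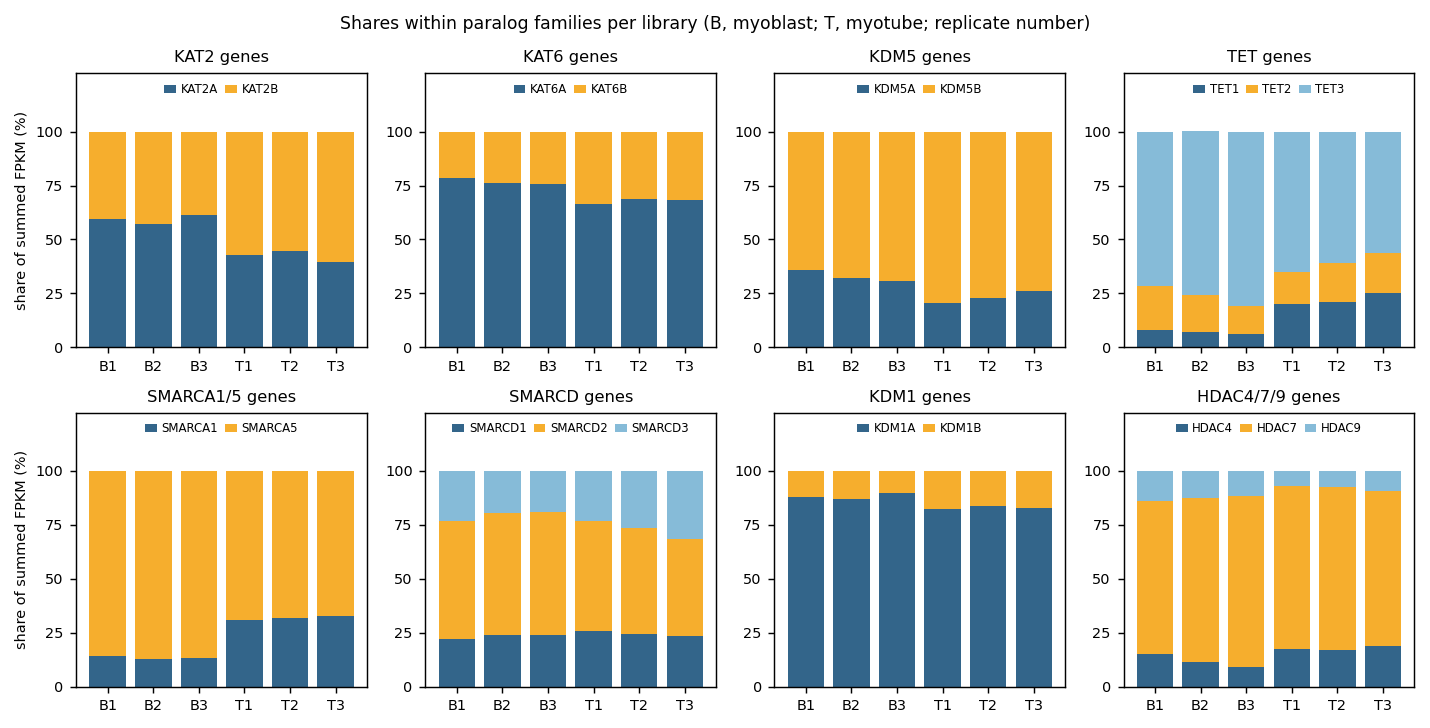
Share of each paralog in the summed FPKM of its family (percent, stacked to 100) in myoblast libraries B1 to B3 and myotube libraries T1 to T3. The SMARCA1 share more than doubles from 13.5% to 31.9% on average, and KAT2B passes KAT2A.

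A further 126 tested genes outside the 80 came from lists of complex subunits, related enzymes and histone chaperones. A list of muscle factors such as MEF2C and MYOD1 was pooled with them. All are called partners here, and of the 126, 59 were higher and 36 lower. Of all tested genes 36.7% were higher and 35.7% lower, and the partners' median was 0.15. With the length trend removed 47 of the 126 partners were higher and 51 lower, beside 33.8% and 38.7% of all genes. Their median was then 0.00. On the TPM scale 72 of the 126 were higher and 27 lower, beside 45.8% and 27.3% of all genes. Deacetylase complexes had 11 higher and 2 lower of 16 (10 and 3 with the length trend removed), led by the corepressor NCOR1, 2.50-fold higher (43.5 ± 5.07 and 108.4 ± 7.74 CPM, SD; log2 fold change 1.32, and 0.71 with the trend removed), with SAP30, a SIN3 complex subunit, 2.57-fold lower. Polycomb partners had 11 higher and 3 lower of 20 (8 and 4 with the length trend removed). Among them CBX2, a reader of the Polycomb mark, was 3.74-fold higher (4.73 ± 1.54 and 17.6 ± 1.59 CPM, SD) and PCGF1 2.18-fold lower. JARID2, which joins the same complex as EZH2, stood in that list and also in the list of other demethylases and arginine enzymes (4 higher and 2 lower of 6; 2 and 3 with the length trend removed). It was 2.73-fold higher, and JMJD6 in the latter list was 1.30-fold lower.

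Acetyltransferase partners were split, 7 higher and 7 lower of 22. EP300, the close relative of CREBBP, was at 40.2, 43.0 and 41.7 CPM in myoblasts and at 145.4, 139.9 and 138.4 CPM in myotubes, 3.39-fold higher (1.76 ± 0.04, adjusted p = 4.8e-09; 1.15 with the length trend removed). HAT1, which acetylates newly made histone H4, was 2.55-fold lower. Heterochromatin partners had 3 higher and 5 lower of 10. The heterochromatin protein gene CBX5 was at 203.4, 216.2 and 229.4 CPM in myoblasts and at 57.1, 51.3 and 47.1 CPM in myotubes, 4.17-fold lower (-2.06 ± 0.10, adjusted p = 1e-08), and ATRX, a remodeller of silent repeats, was 4.90-fold higher (2.29; 1.69 with the length trend removed).

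Histone chaperones, which deliver histones to DNA, had 3 higher and 7 lower of 11. MCM2, which belongs to the replication helicase and was also in the dividing-cell list, was 3.96-fold lower, and UBN1 of the replication-independent HIRA pathway was 1.56-fold higher. The BAF, INO80 and ISWI partners had 11 higher and 5 lower of 21 (9 and 11 with the length trend removed), with ARID2 2.60-fold higher and ACTL6A 2.22-fold lower. The list for H3K4, H3K36 and H3K79 methylation had 4 higher and 3 lower of 12 (3 and 7 with the length trend removed), with ASH1L 3.92-fold higher (1.97; 1.23 with the trend removed) and DPY30 1.55-fold lower. The muscle list of SMYD and MEF2 genes with their partners had 6 higher and 2 lower of 9, with MEF2C 5.22-fold higher (15.2 ± 1.84 and 79.3 ± 5.03 CPM, SD) and MYOD1 2.39-fold lower.

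**Figure D5:**
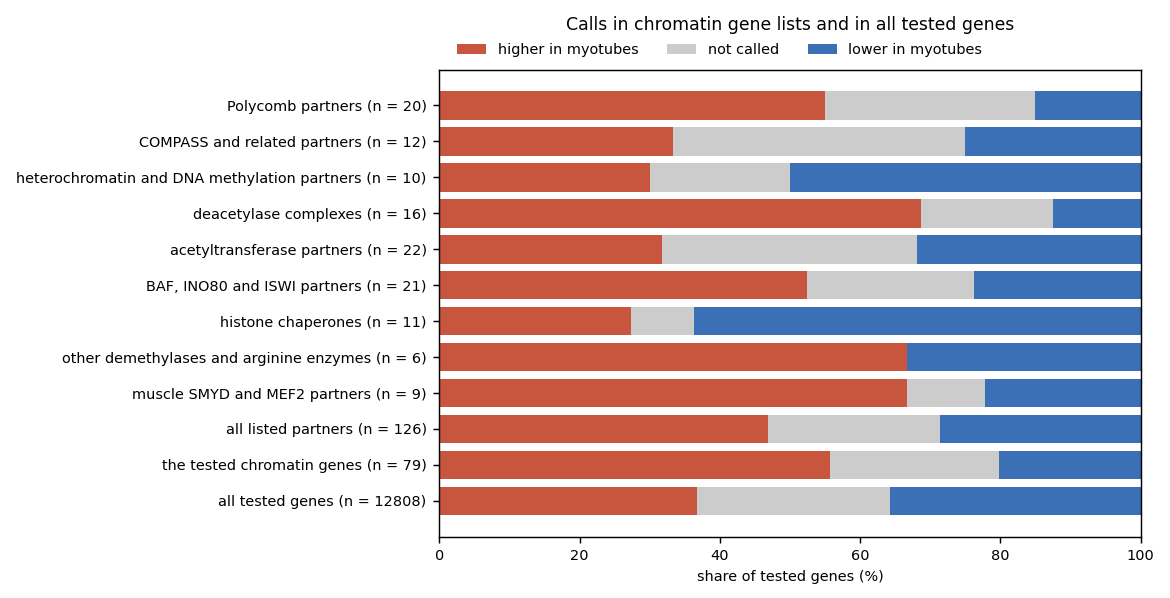
Percentage of tested genes higher, lower and not called in myotubes for the chromatin genes, each partner list and all tested genes. All tested genes divide into 36.7% higher and 35.7% lower, and histone chaperones show more lower than higher calls.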

How the data were processed

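Total RNA of 3 myoblast and 3 myotube libraries was extracted with Trizol and sequenced from Illumina libraries, per the labels' protocols. HISAT and HTSeq were used, per the submitters' processing notes. Their versions, the build of the genome, strand handling and the rule for reads with several matches are each not given in the sources used. The authors deposited, per the file headers, read counts and FPKM values of each gene in 1 table per library. Loci without an Ensembl identifier (1069 per myoblast and 1710 per myotube table, 1.66 to 2.12% of counts) and 2 annotation-text lines per myotube table were left out.

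In R 4.3.3, the quasi-likelihood F-test of edgeR 4.0.16 was applied to the deposited counts after TMM scaling, two-sided, with Benjamini-Hochberg adjustment over the 12808 genes whose FPKM averaged 1 or more. Calls used an adjusted p under 0.05, and edgeR's common biological coefficient of variation came to 0.0975. The SE of a log2 fold change is that of the difference of group means of log2 CPM with a prior count of 1. Paralog shares used the deposited FPKM. The test was tested on simulated data first. Those data held far fewer changed genes than were called here and no length trend, so they cannot speak for the scaling of these libraries. Alternatives used DESeq2 1.42.0, limma 3.58.1, other scalings, filters, pseudocounts and thresholds, a block, each library left out and, added after the data were seen, an edgeR offset for gene length (loess of span 0.5 per library). The offset took the place of the TMM factors. The TPM, FPKM and quantile settings were fitted with limma.

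Library values are given for 26 core genes and for the called gene with the largest rise and fall of each role without overlap, 43 genes in all; 1 tested gene is in the counts but is not reported here. Others are named by mean, fold or call. KDM6B, PRMT1, PRMT5 and SMARCA4 were not analysed here. The members and lists were chosen with earlier results of these data known. Of the 80 genes 15 overlap another listed gene, 9 of them one with at least 10% of their own counts. Partner and marker symbols were matched by name, 4 of them through synonyms in a RefSeq table of GRCg7b. Promoter sequences were not used here, so the planned motif description was not run.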

Additional observations from a re-analysis of the deposited data

How the results depend on the processing

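Over 17 alternatives at the same threshold (other scalings, filters, tools and units, each library left out in turn, a replicate block and the length offset), 35 of the 44 higher and 11 of the 16 lower calls were made under every one, and 42 of the 44 under every one but the length offset. Leaving out 1 library gave 42 to 45 higher and 14 to 16 lower chromatin genes, 14 to 18 changed at least 2-fold, and 53 to 58 higher and 34 to 37 lower partners. Deviations from the group mean had correlations of -0.0351, 0.1036 and -0.1548 between libraries of the same number 1, 2 and 3 over 12808 genes. Between unlike numbers they ran from -0.15 to 0.1839. With 3 libraries per group these values cannot settle whether replicate numbers pair the samples. The fit with the number as a block gave 43 higher and 14 lower and did not call EZH2, BRD8 or PRMT9 (adjusted p of 0.052, 0.05 and 0.057). DESeq2 and median-of-ratios scaling each gave 44 and 16, library totals 47 and 14, and an adjusted p under 0.01 gave 42 and 14. With the length trend removed, the sign turned for CHD4 (-0.10), SUV39H2 (-0.20) and KAT7 (-0.31), and, uncalled in both fits, for HDAC1 (-0.19) and TET3 (-0.12), among others; 6 genes were at least 2-fold higher and 4 lower. The TET2 share, main difference 0.369 percentage points, was -0.501 with counts divided by the listed length, and over left-out libraries ran from -1.5 to 2.17. Without myotube replicates 2 and 3 it was -0.0617 and -0.351. The HDAC7 share, -1.2, ran from -3.56 without myoblast replicate 1 to 0.875 without myoblast replicate 3. The cause was not tested. Depth limits DNMT3B, with 65 and 48 counts per group. The motif description was not run.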

Other observations

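Among the 41 tested chromatin genes in the longest of 5 equal length bins, myoblast replicate 1 was the highest myoblast library for 23 (56.1%), beside 56.7% of all 2560 genes of that length. It was the highest for 14 of the 38 shorter chromatin genes (36.8%), beside 31.5% of all shorter genes. Among myotubes the highest library for the 41 long chromatin genes was replicate 1 in 21 cases (51.2%), whereas for all genes of that length it was replicate 1 in 25.9% and replicate 3 in 54.1%. With the length trend removed, 6 chromatin genes that had not been called were called, namely BRD2, HDAC3, HDAC9, KAT7, SMARCD2 and SUV39H2.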
